A study of Mus musculus with 6 samples.

Results

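The comparison described here is that of macrophages pretreated with metformin before LPS with macrophages given LPS alone. It uses 4 of the 6 RNA-seq libraries of the study and 11689 of the 54532 listed genes, those with at least 1 TPM in 2 or more of the 4 libraries. TPM, a measure of transcript abundance, corrects a gene's reads for its length and gives all libraries an equal sum. All libraries were made from bone-marrow-derived macrophages (BMDMs) of wild-type C57BL/6 mice, which are grown from marrow precursors in culture. The LPS group received 100 ng/ml LPS, a cell wall component of Gram-negative bacteria, for 2 h. In the Met + LPS group the same stimulation followed 6 h with metformin at 5 mM. Untreated BMDMs make up the third group, and each group has 2 libraries. No group received metformin alone, so a change with metformin in the absence of LPS was not measured here. The labels do not say whether the 2 libraries of a group come from separate mice or cultures, and p-values therefore measure only the spread between these libraries.

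Metformin is a biguanide used against type 2 diabetes that inhibits complex I of the mitochondrial respiratory chain. Cells answer mitochondrial, amino acid and protein-folding stress through the integrated stress response, in which kinases phosphorylate the translation factor eIF2 and the transcription factor ATF4 is made in larger amounts. ATF4 is known to act on genes of amino acid synthesis, amino acid uptake and tRNA charging, whereas genes of sterol synthesis are under the control of SREBP2, the product of Srebf2. LPS acts through the receptor TLR4 and switches macrophages to an inflammatory expression program within hours.

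The libraries hold 25457011 to 30762750 reads on genes, recovered from the TPM values. The first principal component (85.6% of the variance) set the untreated libraries apart, and the next (10.5%) separated LPS from Met + LPS. Between the 2 libraries of a group the median absolute log2 difference per gene was 0.0748 for LPS and 0.0790 for Met + LPS, against 0.242 and 0.250 between the groups. All 10 macrophage markers examined were expressed and their summed level was 38511 and 38046 TPM with LPS and 31314 and 31380 TPM with Met + LPS. Markers of natural killer, erythroid and stromal cells stayed under 1 TPM in sum. The summed neutrophil markers lay at 26.5 and 28.0 TPM with LPS and 45.5 and 43.4 TPM with Met + LPS, with none of 5 tested markers past the cut-offs, and the summed mast cell markers at 8.27 and 8.18 against 24.4 and 23.2 TPM, nearly all of it from Kit. The T cell markers went the other way, at 12.47 and 11.97 against 5.92 and 5.35 TPM, with 3 of the 6 at 0 in all 4 libraries and Lck as the source of the signal. In untreated cells Lck had 0.898 and 0.810 TPM and Kit 19.5 and 19.7 TPM. The mitochondrial ribosomal RNAs mt-Rnr1 (718 and 736 TPM with LPS, 1167 and 1226 TPM with Met + LPS) and mt-Rnr2 (929 and 943 and then 1612 and 1595 TPM) lay at different levels in the groups of these poly-A libraries. The part of other cell types and of RNA composition in the results was not tested, and fewer cells of a type cannot be told apart from less RNA per cell.

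Metformin pretreatment changed 1052 genes relative to LPS alone, 529 raised and 523 lowered, which is 4.53% and 4.47% of the tested genes. Raised and lowered mean here a log2 fold change of at least 0.7 on the log2(TPM + 1) scale in that direction together with a Benjamini-Hochberg adjusted p under 0.01 in limma, fitted on all 6 libraries. Under the adjusted p alone, 16.6% of the genes were higher and 20.6% lower, and the median log2 fold change over all genes was -0.03. Complete separation was common and carries little weight by itself: both Met + LPS libraries lay above both LPS libraries for 35.3% of the genes and below them for 41.3%.

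**Figure D1:**
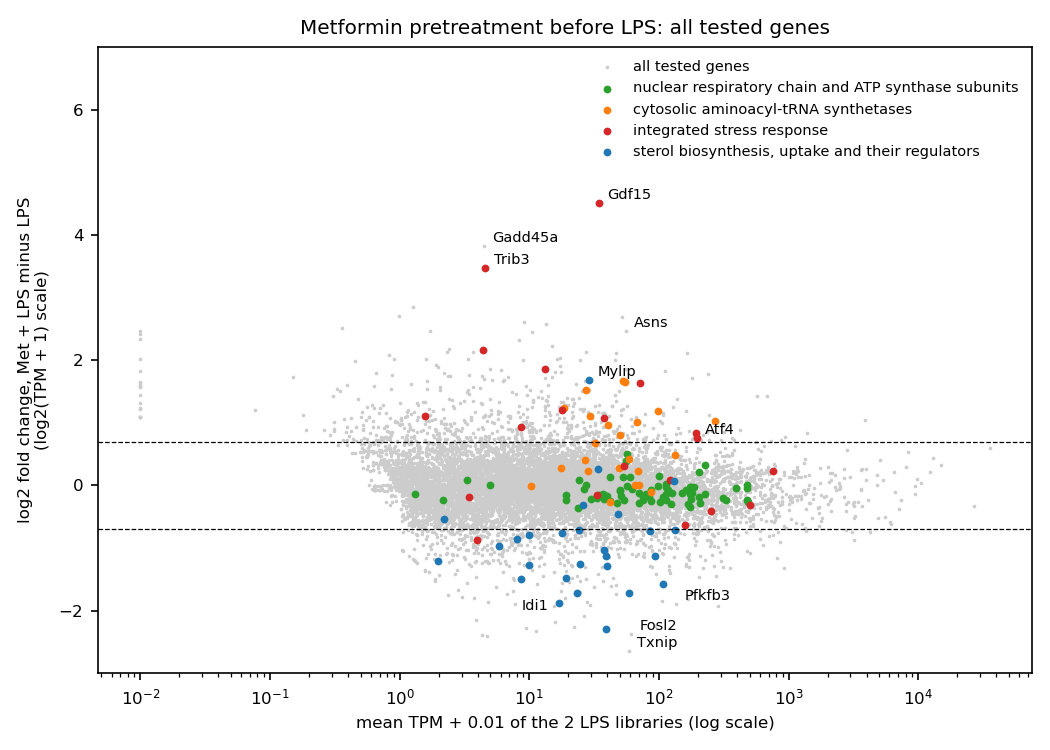
Log2 fold change of every tested gene (Met + LPS minus LPS, log2(TPM + 1) scale) against its mean TPM in the LPS libraries on a log axis, with dashed lines at the fold-change cut-offs of 0.7 and -0.7. Genes of the integrated stress response (red) and aminoacyl-tRNA synthetases (orange) reach up to 4.51 and 1.66, most sterol genes (blue) lie below the lower line (Idi1 at -1.88), and the nuclear respiratory chain subunits (green) stay between -0.36 and 0.50.

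The largest increase was that of Gdf15 (chr8:70629393-70632456 in the build of the files, GRCm38), which encodes a stress cytokine of the TGF-beta superfamily. Its LPS libraries had 32.8 and 36.5 TPM, against 853 and 769.9 TPM with Met + LPS. The groups were far apart, while untreated cells (36.6 and 41.4 TPM) lay near the LPS level, and the log2 fold change was 4.51 ± 0.08 (SE, adjusted p = 7.88e-07). Gadd45a, a growth arrest and DNA damage gene, had 4.24 and 4.66 TPM with LPS and 74.8 and 77.6 TPM with Met + LPS. Untreated cells had 55.02 and 51.4 TPM, so that the value with metformin was above both other groups (log2 fold change 3.82 ± 0.06 (SE), adjusted p = 7.70e-07). Trib3, a pseudokinase made under ATF4, went from 4.88 and 4.26 to 58.9 and 62.1 TPM (3.47 ± 0.07 (SE), adjusted p = 1.27e-06).

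The other increases among the 12 largest belonged to genes of diverse function. Rhov, a gene of an atypical small GTPase, went from 1.31 and 1.21 to 15.8 and 14.9 TPM, the aquaglyceroporin gene Aqp9 from 1.11 and 0.8599 to 11.6 and 12.3 TPM, and Samd8, which encodes a sphingomyelin synthase-related protein, from 9.22 and 8.86 to 64.1 and 56.7 TPM. Cxcr4, the receptor for CXCL12, had 12.2 and 14.7 TPM with LPS and 95.2 and 75.5 TPM with metformin before LPS, both far under the 471 and 454 TPM of untreated cells. Fam110c (log2 fold change 2.51) and Cox6a2 (2.47) started from low levels, at means of 0.347 and 1.69 TPM with LPS, and the LPS libraries of Cox6a2 differed from each other (0.966 and 2.42 TPM). The noncoding RNA Gm26917 (chr17:39843013-39846341) had 47.8 and 55.9 TPM with LPS and 335 and 344 TPM with Met + LPS. The part of RNA composition in its value was not tested. Asns and Slc7a11 complete the set and are described with the amino acid genes.

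Txnip (chr3:96557957-96561883) had the largest decrease. It encodes an arrestin-like protein that limits glucose uptake and binds thioredoxin, and its transcription is known to follow glucose metabolites. Its LPS libraries had 57.4 and 59.5 TPM, against 7.497 and 9.55 TPM with Met + LPS. LPS alone had already left it below the 265 and 259 TPM of untreated cells, and metformin placed it further down (log2 fold change -2.65 ± 0.09 (SE), adjusted p = 3.67e-06). Fosl2, an AP-1 subunit, went from 57.3 and 64.7 to 12.3 and 9.700 TPM, slightly below untreated cells (13.3 and 12.5 TPM). The semaphorin Sema4c (87.2 and 97.8 to 18.2 and 19.1 TPM), the chemokine Ccl24 (15.9 and 15.9 to 2.45 and 3.05 TPM) and the EGF receptor inhibitor Errfi1 (294 and 272 to 79.4 and 67.8 TPM) were lowered to levels that still lay above the untreated ones.

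Cnn3 (log2 fold change -2.32), Nudt17 (-2.25), Spsb1 (-1.90) and Ighm (-2.08) were also among the 12 largest decreases, with Cnn3 sharing part of its sequence with other genes. Ighm encodes the heavy chain of immunoglobulin M, and the 5 B cell markers summed to 1.47 and 1.56 TPM with LPS and 0.792 and 0.766 TPM with Met + LPS. Most of that came from Cd79b (1.38 and 1.34 to 0.462 and 0.711 TPM), while the other 4 lay under 1 TPM in all 4 libraries, and the part of B cells in the value of Ighm was not tested. Mir146 is in the set by the rule, yet its value of -1.92 rests on a mean of 4.75 reads, and it was not called without LPS replicate 1 (-1.86), LPS replicate 2 (-1.98) or Met + LPS replicate 1 (-1.40). Pfkfb3 is described with glucose metabolism.

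Of 48 lists of genes, the shares raised were highest for the integrated stress response, for serine, one-carbon, asparagine and proline synthesis, and for cytosolic aminoacyl-tRNA synthetases, and the share lowered was highest for sterol biosynthesis. Lists of glycolysis, the tricarboxylic acid cycle, the respiratory chain, mitochondrial ribosomes and nucleotide synthesis held few or no called members. The 48 lists have 1167 distinct tested genes, of which 108 were raised and 93 lowered.

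**Figure D2:**
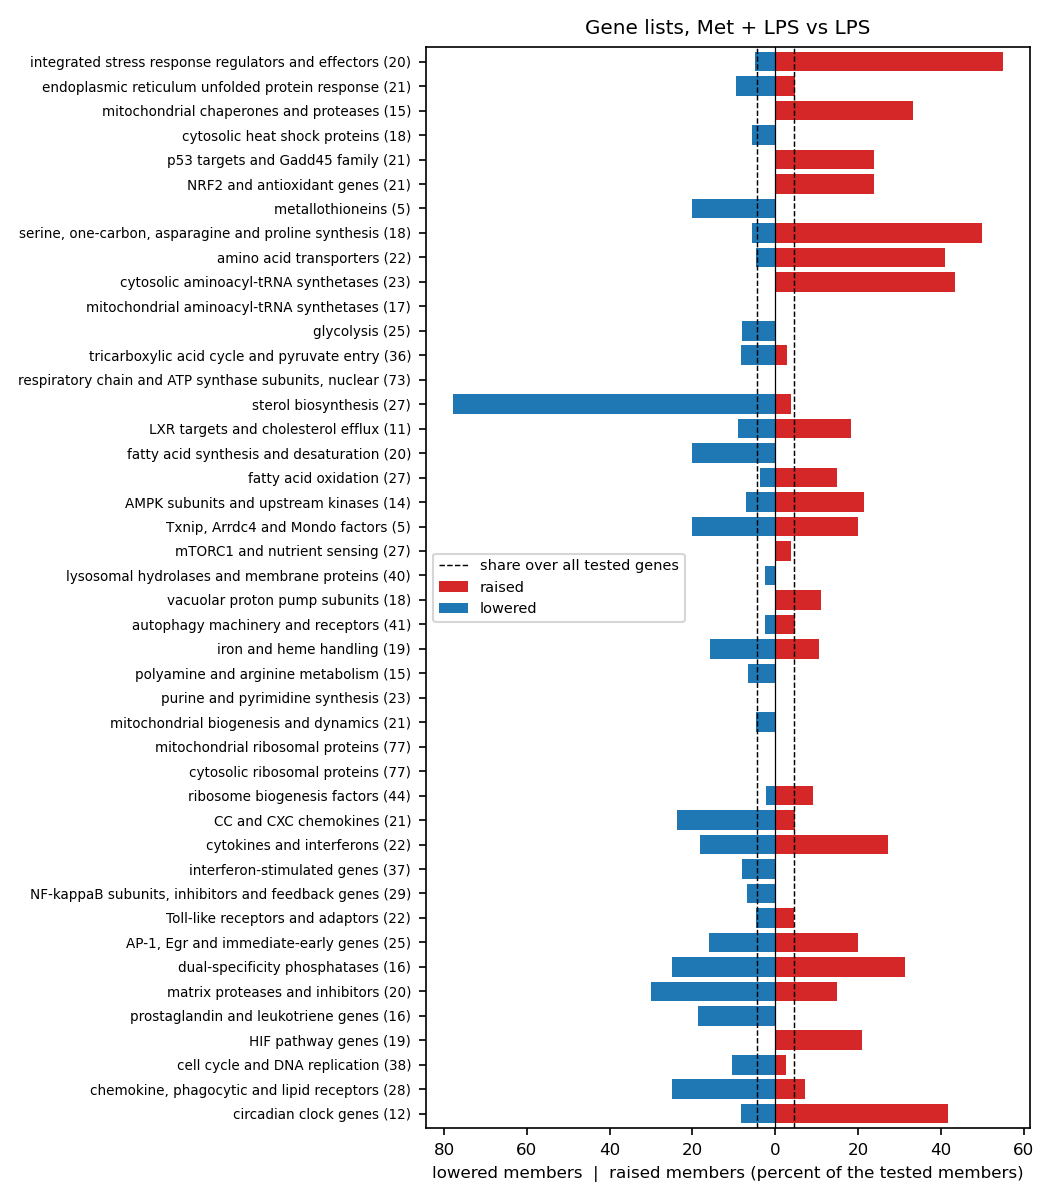
Percent of the tested members of each gene list that were raised (red, to the right) or lowered (blue, to the left) in Met + LPS vs. LPS, with the number of tested members in brackets and dashed lines at the shares over all tested genes (4.53% and 4.47%). Lists with under 15 tested members and none called are left out. Sterol biosynthesis reaches 77.8% lowered and the integrated stress response 55.0% raised.

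The integrated stress response list had 11 of 20 tested members raised and 1 lowered, with a median log2 fold change of 0.80 against -0.03 over all genes. Atf4 itself (chr15:80255184-80257541) had 198 and 194 TPM with LPS and 331 and 334 TPM with Met + LPS. Its increase was moderate in size and far beyond the library spread (0.75 ± 0.03 (SE), adjusted p = 6.21e-06), with untreated cells in between (258 and 258 TPM). Ddit3, the pro-apoptotic factor CHOP, went from 13.2 and 13.4 to 49.97 and 51.8 TPM, close to the 46.9 and 44.98 TPM of untreated cells. Atf5, an ATF4 relative linked to mitochondrial stress, went from 73.2 and 68.5 to 217 and 227 TPM, and untreated cells had 68.2 and 76.3 TPM. The log2 fold change of LPS vs. untreated, which shares the LPS libraries, was -1.71 for Ddit3 and -0.03 for Atf5.

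Sesn2 (log2 fold change 2.16), whose product restrains mTORC1, Cebpg (1.21), a dimer partner of ATF4, and Chac1 (1.11), a glutathione-degrading enzyme, were raised as well. Eif4ebp1 (1.08) encodes an inhibitor of cap-dependent translation, and Ppp1r15a (0.84) the GADD34 subunit that removes the phosphate from eIF2. Among the 4 eIF2 kinases Eif2ak4, the GCN2 kinase that senses uncharged tRNA, was raised (9.302 and 7.99 to 16.9 and 18.02 TPM). The other kinases were not past the cut-offs, with log2 fold changes of -0.15 for Eif2ak1 (HRI), -0.18 for Eif2ak3 (PERK) and -0.63 for Eif2ak2 (PKR). The lowered member was Ddit4 (3.52 and 4.37 to 1.66 and 1.74 TPM), the mTORC1 inhibitor REDD1, which was no longer called without LPS replicate 2 (-0.74), Met + LPS replicate 1 (-0.85) or Met + LPS replicate 2 (-0.89). Without LPS replicate 1 Eif2ak2 was lowered as well (-0.70). Atf3, a further ATF4 target, was at 734 and 771 TPM with LPS and 926 and 851 TPM with Met + LPS, a difference of 0.24 that did not reach the fold cut-off.

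In the unfolded protein response of the endoplasmic reticulum few genes passed the cut-offs. Of 21 tested members 1 was raised and 2 lowered, 13 were lower by adjusted p alone, and the median was -0.30. Ern1, the sensor IRE1, was the raised member (30.5 and 26.2 to 69.02 and 61.1 TPM). The protein disulfide isomerase gene Pdia4 (90.1 and 84.9 to 44.5 and 44.5 TPM) and Sdf2l1 (109 and 114 to 58.4 and 57.4 TPM), a luminal chaperone component, were the lowered members. Hspa5, the chaperone BiP that is the usual readout of this pathway, had 1021 and 1011 TPM with LPS and 838 and 823 TPM with Met + LPS (log2 fold change -0.29). Of 18 cytosolic heat shock genes none was raised and 1 lowered, Hspa1b (37.9 and 40.4 to 18.2 and 18.2 TPM), whose reads could be split with its near-identical copy, and without LPS replicate 1 or Met + LPS replicate 1 a member was raised.

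Mitochondrial chaperones and proteases had 5 of 15 members raised and none lowered. Hspa9, the matrix HSP70 that imports and folds proteins, had 247 and 232 TPM with LPS and 809 and 839.5 TPM with metformin, at 256 and 251 TPM in untreated cells. Its log2 fold change was 1.78 ± 0.04 (SE, adjusted p = 1.27e-06), and the untreated libraries lay slightly above the LPS libraries. The matrix protease Lonp1 went from 39.04 and 37.2 to 83.05 and 87.8 TPM, the chaperonin Hspd1 from 140.3 and 139 to 262 and 270.0 TPM and the inner membrane protease Afg3l2 from 39.6 and 41.1 to 70.9 and 71.7 TPM. Hspe1, the partner of Hspd1, was not past the fold cut-off (0.37), and 46.9% of the 31-base words of Hspd1 and 69.5% of those of Hspe1 occur in no other gene.

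Antioxidant and p53-linked genes were raised in part. Of 21 NRF2 and antioxidant genes 5 were raised and none lowered, and 3 of these 5 concern cystine uptake and glutathione synthesis. These are Slc7a11, Gclm (22.7 and 19.8 to 52.4 and 60.8 TPM) and Gclc (20.7 and 18.6 to 34.7 and 33.9 TPM), the last 2 being the subunits of glutamate-cysteine ligase. Srxn1, which encodes sulfiredoxin, went from 169.9 and 152 to 356 and 379.6 TPM and the peroxiredoxin Prdx1 from 1406 and 1344 to 2296 and 2614 TPM. Nfe2l2, the gene of NRF2 itself, had a log2 fold change of 0.39, and the classical target Hmox1 (0.33) was not called.

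Of 21 p53 targets and Gadd45 genes 5 were raised and none lowered. After Gadd45a the largest was the polo-like kinase Plk2 (110.0 and 113 to 419 and 379 TPM), followed by Trp53inp1 (1.81 and 1.82 to 5.21 and 5.57 TPM). The BH3-only genes Bbc3 (PUMA, 14.9 and 13.9 to 32.01 and 33.4 TPM) and Pmaip1 (NOXA, 7.199 and 6.94 to 14.7 and 13.6 TPM), which promote apoptosis, completed the group. Several of these genes, such as Plk2, Trp53inp1 and Pmaip1, were lower with LPS than in untreated cells (-1.10, -3.53 and -1.34).

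Genes for making, importing and charging amino acids formed the broadest raised group. Asns (chr6:7675169-7693254), the enzyme that makes asparagine from aspartate, had 56.9 and 53.6 TPM with LPS and 303 and 314 TPM with Met + LPS. Untreated cells had 52.3 and 50.4 TPM, which is near the LPS level, and the change with metformin was 5.59-fold by mean TPM (2.46 ± 0.04 (SE), adjusted p = 7.88e-07). Of the 18 tested genes of serine, one-carbon, asparagine and proline synthesis 9 were raised and 1 lowered, with a median of 0.64.

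In the serine branch Phgdh, the first enzyme of serine synthesis, went from 25.7 and 23.8 to 99.99 and 105 TPM and Psph, the last one, from 4.097 and 4.56 to 11.8 and 12.4 TPM. Psat1, the enzyme between them, named because it stands apart from its neighbours, had 30.9 and 30.3 and 31.3 and 28.8 TPM, with overlapping libraries. In the mitochondrial folate branch Shmt2 (34.1 and 35.1 to 82.7 and 89.8 TPM), Mthfd2 (56.1 and 54.1 to 196 and 208 TPM) and, at a low level, Aldh1l2 (0.4202 and 0.3105 to 1.89 and 1.81 TPM) were raised, the last with an adjusted p over 0.01 without LPS replicate 2 or without either Met + LPS library (log2 fold change 1.003 to 1.08). The cytosolic counterpart Aldh1l1 was the lowered member (13.3 and 13.3 to 7.24 and 6.28 TPM), and Shmt1 (0.23), also cytosolic, was not called. The proline enzyme Aldh18a1 (12.2 and 11.1 to 32.5 and 33.02 TPM) and the transaminases Gpt2 (5.94 and 6.17 to 13.2 and 12.03 TPM) and Got1 (67.3 and 69.1 to 114 and 116 TPM) were raised. Only 43.7% of the 31-base words of Phgdh occur in no other gene, so that its level is less certain than the others.

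Amino acid transporters had 9 of 22 members raised and 1 lowered. Slc7a11, the cystine-glutamate exchanger xCT, had 10.7 and 10.2 TPM with LPS and 60.7 and 61.6 TPM with metformin. LPS alone had raised it over the 1.58 and 1.46 TPM of untreated cells, and with metformin it reached 5.87 times the LPS level (2.44 ± 0.06 (SE), adjusted p = 1.27e-06). Slc38a2, the system A carrier of small neutral amino acids, went from 47.7 and 45.3 to 222 and 191 TPM. The large neutral amino acid transporter Slc7a5 (16.3 and 15.4 to 59.6 and 56.7 TPM) and the heavy chain Slc3a2 (424 and 419 to 783 and 772 TPM), with which Slc7a5 and Slc7a11 pair, were both raised. Slc7a1, which imports arginine and lysine, went from 27.5 and 26.7 to 87.7 and 87.9 TPM, and Slc1a4, a carrier of alanine, serine and cysteine, from 1.94 and 1.99 to 9.27 and 10.8 TPM. Slc7a7, a basic amino acid exporter, went down from 41.2 and 36.9 to 19.3 and 18.3 TPM.

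Cytosolic aminoacyl-tRNA synthetases, counted with their scaffold proteins, had 10 of 23 members raised and none lowered, and 17 were higher by adjusted p alone. Sars, which charges serine tRNA, went from 54.8 and 51.2 to 166 and 174 TPM and Aars, for alanine, from 55.00 and 53.6 to 169 and 175 TPM. Gars (98.9 and 97.8 to 224 and 225 TPM), Eprs (28.3 and 26.02 to 79.8 and 79.3 TPM), Nars (280.0 and 263 to 552 and 559 TPM) and Iars (67.98 and 68.5 to 136 and 142 TPM) were also raised, with no overlap between groups. The smallest called change of the list was that of Lars (0.81), and the lowest value was that of Farsa (-0.27), a subunit of the phenylalanine enzyme, which was not called. None of the 17 synthetases of mitochondria was called (median 0.01).

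**Figure D3:**
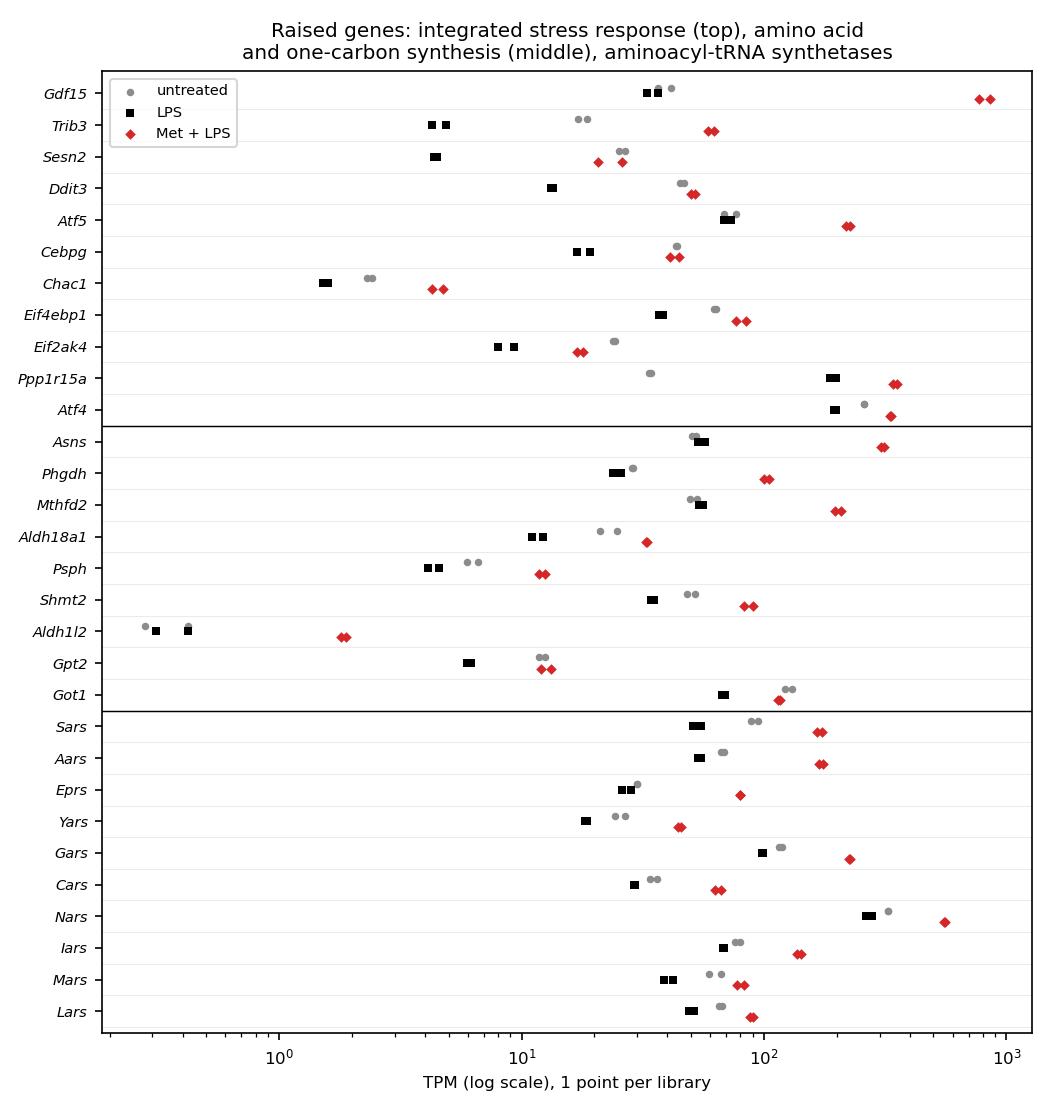
TPM on a log axis, 1 point per library, of the raised members of the integrated stress response list (top), of serine, one-carbon, asparagine and proline synthesis (middle) and of the cytosolic aminoacyl-tRNA synthetases (bottom). The Met + LPS points (red) lie right of the LPS points (black) for all genes shown, as the rule for showing them requires, and the untreated points (grey) lie close to the LPS points for Asns (50.4 to 56.9 TPM in these 4 libraries) and near the Met + LPS points for Ddit3.

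Promoter sequence was examined because these genes moved together. RefSeq promoters (GRCm38.p6, 250 bases before to 50 after the start site) matched 8677 tested genes, among them 81.3% of the protein-coding ones. The letters TGATGNAA on either strand are a form of the element bound by ATF4 with a C/EBP partner. Counting a gene when any of its promoters held them, they were found in 2.80% of these genes and in 4.51% of all genes with a promoter. They were present in 6.08% of the raised genes with a promoter (22 of 362) and in 4.45% of the lowered ones (17 of 382). Of the raised aminoacyl-tRNA synthetases with a promoter 4 of 7 held them, against 2 of 8 raised genes of the serine and asparagine list and 2 of 10 of the integrated stress response list. Over all members with a promoter, raised or not, the counts were 5 of 16, 2 of 14 and 5 of 18 in the same order. Of the amino acid transporters with a promoter 3 of 16 held them, among them 2 of 7 raised members and the 1 lowered member. Of 261 matches 7 overlapped another motif searched. The promoters of Asns (chr6:7693160-7693459, minus strand), Slc7a11 (chr3:50443564-50443863, minus strand), Chac1 (chr2:119350992-119351291, plus strand) and Gars (chr6:55037751-55038050, plus strand) are shown because these raised genes hold the element at positions -23, -66 and -47, -193 and -30 from the start site, with the matching letters in capitals.
Asns: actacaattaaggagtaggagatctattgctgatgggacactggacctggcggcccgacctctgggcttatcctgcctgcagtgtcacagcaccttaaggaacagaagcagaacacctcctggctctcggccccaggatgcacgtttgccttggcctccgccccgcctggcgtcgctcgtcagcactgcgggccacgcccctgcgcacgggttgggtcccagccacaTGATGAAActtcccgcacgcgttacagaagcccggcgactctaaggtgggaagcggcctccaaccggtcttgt
Slc7a11: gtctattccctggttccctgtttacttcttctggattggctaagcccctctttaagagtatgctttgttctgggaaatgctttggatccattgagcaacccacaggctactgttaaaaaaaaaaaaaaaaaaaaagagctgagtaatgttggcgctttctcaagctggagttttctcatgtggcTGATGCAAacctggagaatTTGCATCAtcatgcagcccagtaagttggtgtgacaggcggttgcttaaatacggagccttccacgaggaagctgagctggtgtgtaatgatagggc
Chac1: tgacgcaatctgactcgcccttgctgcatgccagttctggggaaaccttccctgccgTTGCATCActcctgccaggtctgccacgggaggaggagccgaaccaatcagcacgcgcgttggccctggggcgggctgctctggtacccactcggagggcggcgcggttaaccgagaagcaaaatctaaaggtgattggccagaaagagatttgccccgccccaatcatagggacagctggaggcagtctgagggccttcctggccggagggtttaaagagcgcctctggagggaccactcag
Gars: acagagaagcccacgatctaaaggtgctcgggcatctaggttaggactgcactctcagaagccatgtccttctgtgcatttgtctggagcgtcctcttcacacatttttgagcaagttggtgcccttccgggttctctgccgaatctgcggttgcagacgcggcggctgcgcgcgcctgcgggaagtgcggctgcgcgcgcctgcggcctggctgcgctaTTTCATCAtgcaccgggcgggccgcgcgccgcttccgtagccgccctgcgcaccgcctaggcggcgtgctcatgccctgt

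Slc7a11 holds a pair of matches in opposite orientation. A match is a description of letters, not a measured binding site. The E-box CACGTG was present in 16.9% of the raised genes with a promoter, 7.85% of the lowered ones and 12.4% of all tested ones. The antioxidant response core TGACNNNGC was present in 21.3%, 16.5% and 17.2%, and an NF-kappaB motif in 7.46%, 10.995% and 8.38%, of raised, lowered and all tested genes.

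Sterol synthesis had the highest share of lowered members of the 48 lists. Of 27 tested members 21 were lowered and 1 raised, with a median log2 fold change of -1.03. Steps of the mevalonate pathway were lowered by different amounts. Hmgcs1, the first committed synthase, went from 96.5 and 89.3 to 43.1 and 41.2 TPM. Its log2 fold change of -1.12 was smaller than those of Pmvk (-1.72) and Idi1 (-1.88) further down the pathway, at 23.2 and 23.4 to 6.18 and 6.596 TPM and 16.4 and 17.4 to 3.85 and 3.87 TPM. Fdps, the farnesyl diphosphate synthase, was at a low level in all libraries (1.97 and 1.95 with LPS, 0.314 and 0.242 TPM with metformin) and shares sequence with other loci, as do Idi1, Fdft1 and Acat2.

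In the squalene and sterol branch, Fdft1 went from 19.1 and 18.9 to 6.98 and 5.53 TPM, Sqle, a rate-limiting enzyme, from 39.4 and 38.1 to 17.7 and 16.9 TPM, and Lss from 6.08 and 5.67 to 2.502 and 2.51 TPM. The lanosterol demethylase Cyp51 had 59.1 and 58.9 TPM with LPS, 61.3 and 61.2 TPM in untreated cells and 17.6 and 16.8 TPM with metformin. The log2 fold change of Cyp51 was -0.05 for LPS vs. untreated and -1.72 ± 0.04 (SE) for Met + LPS vs. LPS (adjusted p = 1.27e-06). Hsd17b7 (8.08 and 9.02 to 2.54 and 2.26 TPM), Sc5d (39.2 and 40.6 to 16.04 and 15.4 TPM), Msmo1 (37.7 and 37.02 to 18.3 and 17.4 TPM) and Dhcr7 (8.198 and 7.84 to 4.05 and 3.88 TPM) followed the same direction. For Msmo1, Lss, Dhcr7, Mvk and Mvd, LPS alone had also given lower values than in untreated cells (log2 fold changes from -1.40 to -0.86).

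Genes of sterol transport and regulation were called as well. Mylip, a ubiquitin ligase and known LXR target, was the raised member (28.6 and 29.5 to 96.8 and 94.8 TPM). Stard4, a carrier of cholesterol between membranes, went from 25.3 and 23.7 to 10.4 and 9.06 TPM. The regulator Srebf2 was itself lowered (131 and 135 to 84.1 and 78.01 TPM, -0.71), whereas Scap (-0.32), which escorts SREBPs, and the retention proteins Insig1 (0.07) and Insig2 (0.26) were not past the cut-offs. Among the lowered sterol genes some fell short of the fold cut-off without certain libraries. These include Srebf2 (-0.68 without LPS replicate 2, -0.65 without Met + LPS replicate 2), Mvk (-0.64 without Met + LPS replicate 2) and Nsdhl (-0.63 without LPS replicate 1, -0.67 without Met + LPS replicate 1).

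**Figure D4:**
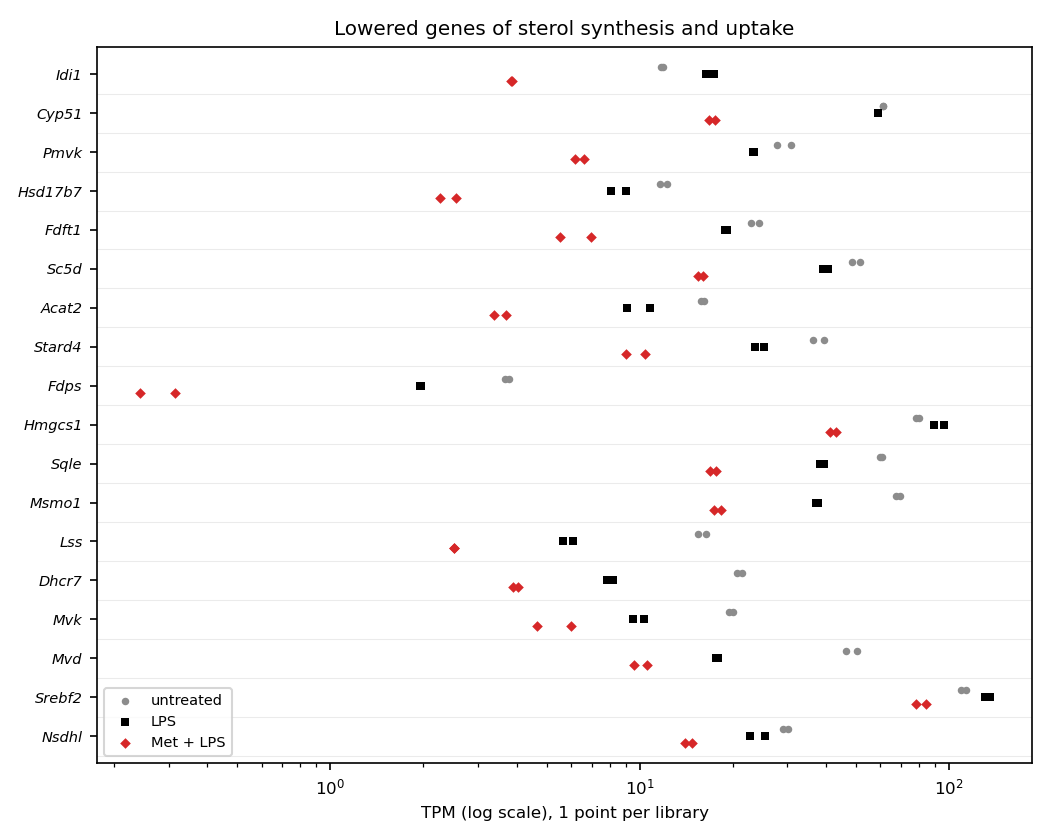
TPM on a log axis, 1 point per library, of 18 lowered genes of the sterol list in order of log2 fold change. The Met + LPS points (red) lie left of the LPS points (black) for all genes shown, as the rule for showing them requires, and the log2 fold change, on the log2(TPM + 1) scale, runs from -1.88 for Idi1 at the top to -0.71 for Nsdhl at the bottom.

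The promoter of Hmgcs1 (chr13:119690101-119690400, plus strand) is shown for this group, with the letters TCACNNCAC in capitals at position -137. This form of the sterol response element was searched after the values were seen. It was found in 4 of the 14 lowered sterol genes with a promoter (Hmgcs1, Msmo1, Hsd17b7 and Dhcr7). The share was 4.30% of the tested genes with a promoter and 4.37% of all genes with a promoter.
Hmgcs1: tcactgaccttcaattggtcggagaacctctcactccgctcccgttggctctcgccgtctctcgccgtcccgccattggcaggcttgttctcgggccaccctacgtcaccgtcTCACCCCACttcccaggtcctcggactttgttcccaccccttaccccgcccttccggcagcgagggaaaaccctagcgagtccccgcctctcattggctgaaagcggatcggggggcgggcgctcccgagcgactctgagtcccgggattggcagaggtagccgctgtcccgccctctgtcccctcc

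Fatty acid synthesis was lowered in a few steps. Of 20 members 4 were lowered and none raised, with a median of -0.24. These were the desaturases Fads2 (32.6 and 30.5 to 10.5 and 8.77 TPM) and Scd2 (19.1 and 18.04 to 7.47 and 6.78 TPM), the elongase Elovl6 (3.697 and 3.39 to 0.843 and 0.878 TPM) and the fatty acid synthase Fasn (30.00 and 30.4 to 15.03 and 15.5 TPM). Srebf1, the SREBP1 gene, had a log2 fold change of -0.38 and was not called. Outside that list the citrate carrier Slc25a1 (105 and 104 to 54.04 and 54.8 TPM) and the isocitrate dehydrogenase Idh1 (196 and 188 to 109 and 97.9 TPM) were lowered, whereas none of 8 genes of the pentose phosphate pathway was called (median 0.00109).

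Among 11 LXR and cholesterol efflux genes 2 were raised and 1 lowered. Mylip led the raised ones, of which 1 was left without Met + LPS replicate 1, and the lowered one was the phospholipid enzyme Lpcat3 (56.2 and 55.8 to 31.7 and 33.1 TPM). Fatty acid oxidation had 4 of 27 members raised (2 without LPS replicate 2) and 1 lowered. The raised ones were led by the nuclear receptors Pparg (33.9 and 34.4 to 80.1 and 76.7 TPM) and Ppard (3.74 and 3.32 to 8.93 and 7.86 TPM), which act on lipid genes and are no enzymes of the cycle. Acaa2, a thiolase of the cycle, was lowered (72.8 and 76.7 to 43.8 and 41.6 TPM).

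Of 25 glycolysis genes none was raised and 2 lowered, with a median of -0.12. Pfkfb3, which makes the activator of phosphofructokinase and is induced by LPS (16.5 and 16.4 TPM untreated), went from 134 and 136 to 37.8 and 33.3 TPM with metformin. It was the largest decrease of the list by far (-1.90 ± 0.06 (SE), adjusted p = 3.10e-06), and its metformin values still exceeded the untreated ones. The hexose transporter Slc2a6, another LPS-induced gene, went from 577 and 627 to 328 and 339 TPM. The glucose transporter Slc2a1 had a log2 fold change of 0.36, Hk2 -0.19 and Ldha -0.35, none past the fold cut-off. Arrdc4, the relative of Txnip, went the opposite way to it (8.94 and 8.85 to 21.4 and 20.3 TPM, 1.14).

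The tricarboxylic acid cycle had 1 of 36 members raised and 3 lowered. Pdp1, a phosphatase that activates pyruvate dehydrogenase, was raised (9.62 and 9.49 to 22.5 and 20.5 TPM). The lowered members were led by Slc25a1 and Idh1, given above. None of 73 nuclear subunits of the respiratory chain and ATP synthase was called, with log2 fold changes between -0.36 and 0.50 and a median of -0.14. Of the 13 mitochondrially encoded subunits 7 passed the minimum level, and none of these was called, from -0.27 for mt-Nd6 to 0.33 for mt-Co1. The 77 mitochondrial ribosomal proteins (median -0.01), 23 genes of purine and pyrimidine synthesis (median 0.06) and 13 NAD genes (median -0.07) held no called member either. Without LPS replicate 1 a mitochondrial ribosomal protein gene was lowered, and without Met + LPS replicate 1 a nucleotide synthesis gene.

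AMPK is the energy sensor that metformin is known to activate. The list of its subunits and upstream kinases, which also holds folliculin and its partners, had 3 of 14 tested genes raised and 1 lowered. No subunit or upstream kinase gene was raised, and the catalytic subunit Prkaa1 had a log2 fold change of -0.28. The raised genes were those of folliculin, Flcn (10.1 and 8.97 to 27.3 and 27.9 TPM), and its partners Fnip1 (28.2 and 29.2 to 89.1 and 79.1 TPM) and Fnip2 (50.8 and 47.4 to 149 and 133 TPM). All of them had been much lower with LPS than in untreated cells, Flcn at 120.1 and 122 TPM there, and with metformin Flcn and Fnip2 lay between the 2 levels, while Fnip1 overlapped the untreated one. Camkk2, a kinase upstream of AMPK, was lowered (52.2 and 55.8 to 31.2 and 30.7 TPM).

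Lysosomal and nutrient-sensing genes were called in single members. The shares raised were 3.70% of mTORC1 and 4.88% of autophagy genes, near the 4.53% over all tested genes, and 11.1% of vacuolar pump genes. The shares lowered were 2.44% of autophagy and 2.5% of lysosomal genes, under the 4.47% over all tested genes. The single genes below are therefore no result about these lists. Rragd, a Rag GTPase, was the raised one of 27 mTORC1 genes (19.5 and 17.1 to 39.9 and 35.9 TPM), and Tfeb, a master regulator of lysosome genes, was raised among 41 autophagy genes (4.704 and 4.13 to 11.6 and 9.57 TPM) together with the receptor Optn (59.6 and 53.8 to 102 and 96.1 TPM). Without LPS replicate 2 or without Met + LPS replicate 2 the raised autophagy genes numbered 4. The lowered member of that list was Atg10 (15.7 and 14.6 to 8.93 and 7.76 TPM), a conjugating enzyme, which was no longer called without Met + LPS replicate 2 (-0.699). Among 18 subunits of the vacuolar proton pump 2 were raised, of which Atp6v1c1 (137 and 136 to 226 and 224 TPM) was left without LPS replicate 2 or without Met + LPS replicate 1. Of 40 lysosomal hydrolases and membrane proteins none was raised (1 without LPS replicate 2) and Sgsh was lowered (17.8 and 16.9 to 8.42 and 6.81 TPM).

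Of 15 genes of polyamine and arginine metabolism none was raised and 1 lowered. This was Nos2, the inducible nitric oxide synthase, which went from 121 and 122 to 44.5 and 46.1 TPM and was nearly silent in untreated cells (0.0596 and 0.0949 TPM). Of 19 genes of iron and heme handling 2 were raised and 3 lowered. Ceruloplasmin, Cp (4.697 and 4.77 to 1.85 and 1.74 TPM), and the ferrireductase Steap4 (2.71 and 3.301 to 0.2097 and 0.107 TPM), both low in level, were lowered, as was the siderophore-binding Lcn2 (3.61 and 4.28 to 1.97 and 2.02 TPM), whose call was lost when any 1 of the 4 libraries was left out (log2 fold changes from -0.62 to -0.82). The iron exporter Slc40a1 (10.98 and 10.7 to 18.2 and 19.6 TPM) and the mitochondrial iron importer Slc25a37 (183 and 191 to 309 and 334 TPM) were raised.

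None of 77 cytosolic ribosomal protein genes was called, yet all 77 had a positive log2 fold change, from 0.03 to 0.45 with a median of 0.18 (76 positive without LPS replicate 1, 74 without LPS replicate 2), and 35 were higher by adjusted p alone. As a share of all TPM they made up 3.64% in both LPS libraries, and with metformin 4.09% and 4.17%, against 4.51% in untreated cells. The list of 44 ribosome biogenesis genes, which also holds Myc and its network partners, had 4 raised members and 1 lowered. Of the Myc network, Myc, which drives ribosome biogenesis, went from 12.4 and 12.4 to 35.98 and 32.7 TPM, its antagonist partner Mnt from 1.99 and 2.81 to 8.23 and 7.301 TPM, and Mxd1, another antagonist, was lowered (30.7 and 34.8 to 18.8 and 17.1 TPM). Utp14a (14.9 and 14.2 to 32.5 and 29.98 TPM) and Gnl3 (21.9 and 22.7 to 38.3 and 37.6 TPM) were the raised genes among the biogenesis factors proper.

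Of 38 cell cycle genes 1 was raised and 4 lowered. The ribonucleotide reductase subunit Rrm2 (16.1 and 14.8 to 5.39 and 5.18 TPM), the replicative helicase genes Mcm7 (13.5 and 12.5 to 4.902 and 6.92 TPM) and Mcm5 (27.4 and 26.8 to 14.4 and 16.2 TPM) were among the lowered ones. Cdt1, which loads that helicase, was raised (19.7 and 19.2 to 52.9 and 53.2 TPM).

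Inflammatory genes moved in both directions and are given in brief. Of 22 cytokine genes 6 were raised and 4 lowered (2 without LPS replicate 2). Tnf went from 3920.4 and 3914 to 8212 and 7925 TPM and Ifnb1 from 148 and 182 to 738 and 686 TPM, while Il1b went from 3207 and 2942 to 1865 and 1793 TPM and Il10 from 156 and 165 to 67.9 and 65.98 TPM. The decrease of Il1b (-0.75 ± 0.13 (SE), adjusted p = 0.00292) was no longer called when any 1 of the 4 libraries was left out, with log2 fold changes from -0.69 to -0.81. Of 37 interferon-stimulated genes none was raised and 3 lowered (6 without LPS replicate 1, 1 without LPS replicate 2, 5 without Met + LPS replicate 2), 24 being lower by adjusted p alone with a median of -0.37, although the interferon gene Ifnb1 was itself higher. All 7 tested MHC class II genes were lower by adjusted p alone, with a median of -0.55, and none reached the fold cut-off, except 1 without LPS replicate 1 or without Met + LPS replicate 1. Of 21 chemokines Cxcl2 was raised (558 and 574 to 1570.5 and 1472 TPM, with 2 raised without Met + LPS replicate 2) and 5 were lowered.

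Fc receptors were among the lowered receptors. Fcgr1 (153 and 177 to 74.9 and 73.8 TPM), Fcgr3 (644 and 622 to 336 and 317 TPM), Fcgr4 (162 and 180.2 to 78.2 and 70.2 TPM) and Fcgr2b (78.03 and 77.03 to 39.6 and 39.6 TPM), which bind immunoglobulin G, were 4 of the 7 lowered genes in a list of 28 receptors. The groups did not overlap for any of them. The log2 fold changes of LPS vs. untreated were -0.00 for Fcgr1 and -0.19 for Fcgr3, against 1.26 for Fcgr4 and 2.17 for Fcgr2b. In the Toll-like receptor list the adaptor Ticam1 (41.5 and 40.3 to 93.4 and 85.7 TPM) was raised and Tlr8 (142 and 138 to 77.8 and 76.3 TPM) lowered. Each makes up 4.55% of the 22 tested members, near the 4.53% raised and 4.47% lowered over all tested genes.

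Immediate-early genes, the phosphatases of the MAP kinases and clock genes were each divided. Of 25 genes of the AP-1 and Egr list 5 were raised, among them Egr1, Klf4 (6.03 and 6.56 to 23.7 and 20.5 TPM) and Fos (8.55 and 8.21 to 22.2 and 20.99 TPM), and 4 were lowered, led by Fosl2. Of 16 dual-specificity phosphatase and Sprouty genes 5 were raised, led by Dusp8 and Dusp4 (45.1 and 46.4 to 198 and 177 TPM), and 4 lowered (2 without LPS replicate 1 or without Met + LPS replicate 2), led by Dusp2 (464 and 542 to 241 and 235 TPM). Clock genes had 5 of 12 members raised and 1 lowered, with the repressors Bhlhe41 (8.37 and 9.56 to 41.7 and 35.98 TPM) and Bhlhe40 (23.7 and 22.3 to 78.1 and 68.7 TPM) in front and Nfil3 lowered (165 and 161 to 72.1 and 61.2 TPM). Of 19 genes of the HIF list 4 were raised and none lowered, with Vegfa (5.27 and 5.08 to 19.7 and 17.9 TPM) at the top.

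Genes that do not respond to LPS were taken as those with an absolute log2 fold change of LPS vs. untreated under 0.7, both as deposited and after subtraction of the median of -0.44. Because that median is negative, the 2 limits admit larger decreases than increases with LPS. They concern fold change alone. Some genes within them had an adjusted p under 0.01 in limma for LPS vs. untreated, such as Midn (-0.51, 0.000543) and Olfm1 (-0.39, 0.000235). The rule left 5759 of the 11689 genes. Metformin pretreatment raised 154 of them and lowered 145 (2.67% and 2.52%). Among the other 5930 genes 12.7% were called, 375 raised and 378 lowered. Of those up with LPS by a log2 fold change of at least 2 (adjusted p under 0.01), 127 were lowered and 18 raised. Of those down with LPS past the same cut-offs, 84 were raised and 5 lowered. The rest had 273 raised and 246 lowered. With the libraries rescaled by their median ratio the class grew to 7898 genes, of which 265 were raised and 202 lowered, and with a limit of 0.5 in place of 0.7 the called genes numbered 96 and 84. The class and the metformin comparison share the LPS libraries, so that the differences between these shares and directions are a description and were not tested. The median log2 fold change of the raised genes was 1.01 in this class and 0.98 in the other genes, and that of the lowered genes -0.92 in each.

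The LPS-unresponsive genes, 5759 of the 11689 tested, hold a part of the amino acid and sterol pattern. The lists of the integrated stress response, serine and asparagine synthesis, amino acid transport and tRNA charging have 83 distinct tested members, 39 raised and 3 lowered. Of these, 40 are in the class, of which 21 were raised and 1 lowered. The class holds only 4 of the 11 raised members of the integrated stress response and 2 of the 9 raised amino acid transporters. The sterol and fatty acid synthesis lists have 47 distinct tested members, 1 raised and 25 lowered, and 30 of the members are in the class, none raised and 16 lowered. Of the aminoacyl-tRNA synthetases 20 of 23 did not respond to LPS, and 9 of these were raised. By contrast the class holds 1 of 22 tested cytokines and none of the 37 interferon-stimulated genes.

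The 8 largest increases of the class were those of Gdf15, Gm26917, Fam110c, Asns, Egr1, Dusp8, Phgdh and Slc1a4. Egr1, a zinc finger factor of the immediate-early response, had 4.34 and 3.92 TPM untreated, 4.07 and 4.95 TPM with LPS and 26.9 and 20.3 TPM with Met + LPS. The untreated and LPS libraries of Egr1 lay within the same range and the metformin libraries well above it, with a visible spread between them (2.15 ± 0.14 (SE), adjusted p = 3.21e-05). Dusp8, a phosphatase of JNK and p38, had 1.32 and 1.26, 0.836 and 0.788 and 6.76 and 6.61 TPM in the same order. Phgdh had 28.7 and 28.7 TPM in untreated cells, close to its LPS level, and Slc1a4 2.88 and 3.66 TPM.

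The largest decreases included those of Midn, Cyp51, Pmvk, Sult1a1, Fads2, Tmem176b and Olfm1, with Cyp51, Pmvk and Fads2 from lipid synthesis. Midn, which encodes midnolin, a protein that brings nuclear proteins to the proteasome, had 40.2 and 39.99 TPM untreated, 25.9 and 30.00 TPM with LPS and 7.31 and 6.66 TPM with metformin. The sulfotransferase Sult1a1 had 8.81 and 10.7, 7.32 and 7.64 and 1.84 and 1.42 TPM. Tmem176b, a cation channel of intracellular membranes, had 21.8 and 23.8, 23.8 and 25.1 and 7.98 and 7.67 TPM, and Olfm1, a secreted olfactomedin, 47.7 and 50.8, 37.6 and 36.9 and 12.6 and 11.99 TPM. In all 4 the metformin libraries lay below the LPS libraries with no overlap, as the naming rule requires, and also below the untreated libraries. The log2 fold changes against LPS ran from -1.86 for Midn to -1.53 for Olfm1.

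**Figure D5:**
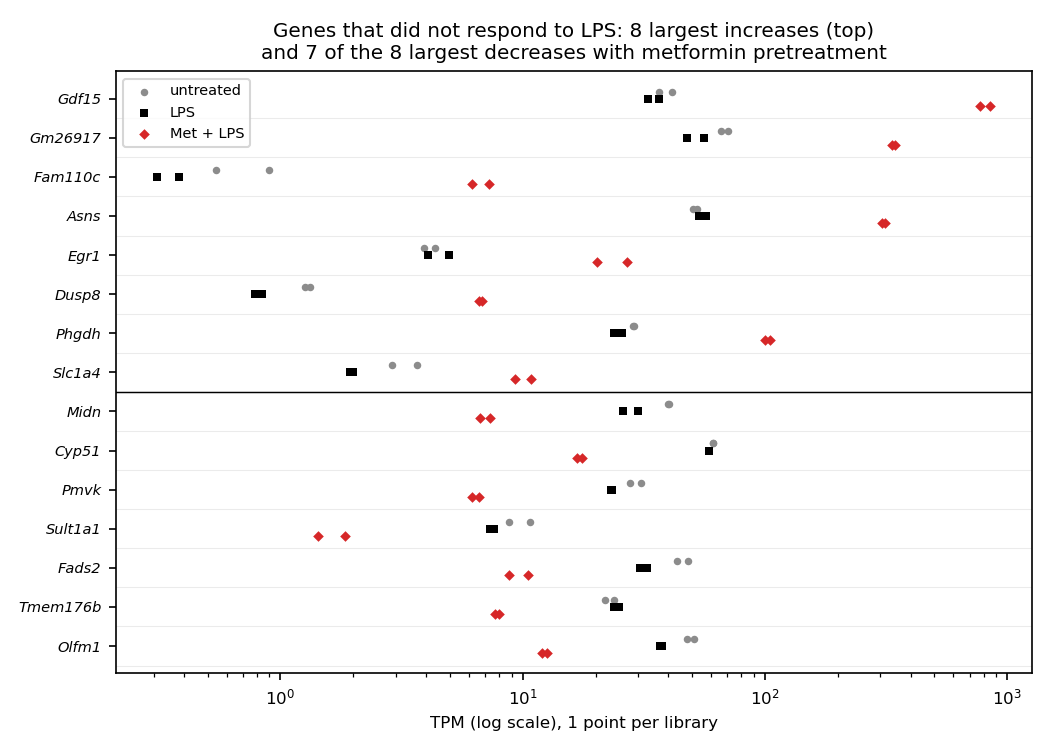
TPM on a log axis, 1 point per library, of the 8 largest increases (top) and 7 of the 8 largest decreases (bottom) with metformin pretreatment among genes that did not respond to LPS. As the rule for showing them requires, untreated (grey) and LPS points (black) lie within the fold limits of the class on the log2(TPM + 1) scale. The Met + LPS points (red) lie apart from the LPS points by the same rule. On the TPM axis shown, low genes such as Fam110c (means of 0.718 TPM untreated and 0.347 TPM with LPS) can lie further apart. For some genes the untreated and LPS points do not overlap, such as Midn (40.2 and 39.99 against 25.9 and 30.00 TPM).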

How the data were processed

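RNA-seq of bone-marrow-derived macrophages was compared in 3 groups of 2 libraries, grouped by the treatment given in the labels. Per the submitters' processing notes the tools were STAR 2.6.1d, SAMtools 1.9 and featureCounts (Subread 1.6.3) with the builds GRCm38 and mm10, and the authors deposited TPM values per gene, which adjust read counts for gene length and library total. The study's own test was DESeq2, which TPM values do not allow. Reads were recovered by multiplying TPM by the exon length of GENCODE vM21, available for 54495 genes. Of the values above 0, 96.0% to 96.5% per library came out whole within 0.05 reads, which gave 25457011 to 30762750 reads on genes. The number of libraries limits the precision more than this depth does, since the 2 libraries of each group differed by more than sampling noise (chi-square per degree of freedom 2.01, 3.54 and 3.74 for untreated, LPS and Met + LPS).

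Genes with at least 1 TPM in 2 of the 4 compared libraries were tested on log2(TPM + 1) with limma 3.58.1 in R 4.3.3, with all 6 libraries in 1 fit, an empirical Bayes trend and Benjamini-Hochberg adjustment over all 11689 genes. The fit had 3 residual and 3.95 prior degrees of freedom. A pseudocount of 1 understates the change of low genes. Called genes passed an absolute log2 fold change of 0.7 and an adjusted p under 0.01. An exact permutation test of 2 against 2 libraries cannot go below p = 0.333 and was not used. The calling script was tested on simulated data. Of the called genes 50 have a mean under 10 reads.

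The members and the gene lists were chosen with earlier results of these data known. Named were the 12 largest increases and decreases, the 8 largest of each among genes that do not respond to LPS (both with non-overlapping libraries and at least 5 TPM in the higher group), and in each list the 2 to 6 largest changes and its regulators. Further list members and markers, such as Psat1, Hspe1, Atf3, Hmox1, Slc2a1, Hk2, Ldha, Shmt1, Lars, Farsa and Cd79b, were chosen after their values were seen, as was the sterol response motif. Some genes that this rule names are not reported here. The share of a gene's 31-base words found in no other gene was counted on the annotated transcripts. Alternatives were another pseudocount, filter, scaling, set of libraries, variance model or threshold, a replicate block, and leaving out each library. Limma-voom on the recovered reads was chosen after seeing the data. Python 3.11.15 with numpy 2.4.6, pandas 2.3.3 and matplotlib 3.10.9 served for tables and plots.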

Additional observations from a re-analysis of the deposited data

How the results depend on the processing

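The 1052 calls between Met + LPS and LPS numbered 848 to 1230 under other filters, scalings, pseudocounts, sets of libraries, variance models and p-value thresholds, and none of the calls changed direction in any of these. Leaving out 1 library gave 943 to 1010 calls, 463 to 524 raised and 436 to 493 lowered. Voom on recovered reads, chosen after seeing the data, called 1380 genes (668 raised, 712 lowered). A fold cut-off of 1 left 457 genes (258 raised, 199 lowered) and, of 201 calls of list members, 121. Among genes that do not respond to LPS, 299 calls became 128 (78 raised, 50 lowered) with that cut-off and 467 (265 raised, 202 lowered) with median-ratio rescaling, which enlarges the class. They became 180 (96 raised, 84 lowered) with a limit of 0.5, and 818 (427 raised, 391 lowered) when the class held all genes not past the study's LPS cut-offs. These changes follow from the altered thresholds and class. Leaving out 1 library gave 273 to 293 calls there. With a replicate block 1039 genes were called (525 raised, 514 lowered), and Lcn2 was not (-0.72). Deviations of same-numbered libraries correlated at 0.0087, 0.0225 and 0.0288, so no shared deviation was visible. With only 2 numbers this cannot tell whether same-numbered libraries come from the same mice or cultures, and they were treated as unpaired. Of 158 called genes covered by the text or its naming rule, 11 lost their call in an alternative that kept both cut-offs. All are given above without the library concerned except Ifnb1 (pseudocount 0.1, 2.12) and mt-Rnr1 (0.70 without LPS replicate 1, 0.68 without Met + LPS replicate 2). The fold cut-off of 1 is not part of that count. Under it every named gene with an absolute log2 fold change under 1 loses its call. The uncalled Insig1 and Psat1 changed sign when 1 library was left out (-0.0398 to 0.178 and -0.0846 to 0.0340). Of 1536 list counts 85 moved by over 1.5 times. With 2 libraries a group, small changes of single genes cannot be told from the spread.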
